A study of Rattus norvegicus with 20 samples.

Results

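Rear-leg skeletal muscle of diabetic rats given vanadyl sulfate, a salt of vanadium, was set against that of diabetic rats without treatment. The comparison uses 10 of the 20 arrays of the series: 5 of untreated diabetic rats and 5 of diabetic rats given vanadyl sulfate, chosen by their sample titles. The other 10 arrays, 5 of untreated normal rats and 5 of normal rats given vanadyl sulfate, entered the fit and are quoted only where they bear on a result. The sources used here do not give the strain, sex or age of the rats, the way they were made diabetic, the muscle sampled, or the dose, route and duration of vanadyl sulfate. Every array measured poly(A) RNA of 1 muscle sample. No label states that replicates of a group are separate rats, and p-values therefore measure only the spread among samples, which may be technical.

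Without enough insulin, skeletal muscle takes up less glucose, burns more fatty acid and breaks down its own protein. Vanadium compounds inhibit protein tyrosine phosphatases, the enzymes that switch off the insulin receptor, and lower blood glucose in diabetic rodents. Muscle fibres respond to unloading, stretch or loss of nerve supply with a small set of genes that includes Ankrd1, Fhl2, Myh3 and the acetylcholine receptor subunits.

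Signals in this section are the deposited linear intensities, and changes are differences of log2(signal + 16), treated diabetic minus untreated diabetic, with the standard error (SE) of the fit and 5 arrays per group. Adding 16 before the logarithm understates changes of dim probe sets. Adjusted p-values come from limma with the Benjamini-Hochberg method over 6027 probe sets, with 0.05 as the threshold. A dim signal means one under the array's own 40th percentile, a level that lay between 235 and 324 in these 10 arrays. The expression array measures tissue as a whole, so fewer cells of a type and less RNA per cell cannot be told apart.

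The median signal of the 20 arrays lay between 379 and 651. The 10 arrays compared here correlated with each other at 0.764 to 0.968 over the tested probe sets, highest for the pair of diabetic replicates 1 and 3 and lowest for that of treated replicates 2 and 5. The Gapdh control probe sets compare the 3' with the 5' end of the transcript, and their log2 ratio rises as RNA degrades; it was 3.94 in treated diabetic replicate 1 and between 0.13 and 1.30 in the other 9 arrays. Its mean was 0.61 ± 0.39 in diabetic and 1.39 ± 1.50 in treated muscle (SD, n = 5 each). The difference was 0.78 (exact permutation test over 252 splits, two-sided p = 0.325, adjusted p = 0.595). The beta-actin ratio averaged 1.75 ± 0.73 and 1.96 ± 0.59 (difference 0.21, exact permutation test, p = 0.595, adjusted p = 0.595). The tissue label was borne out: 17 of 19 skeletal muscle fibre genes on the array, among them the muscle actin Acta1 and the muscle creatine kinase Ckm, lay above the percentile in all 10 arrays. Heart markers were mixed. Nppb, Gja1 and Kcnj5 were dim in all 10 arrays, whereas Myh6, Myl4 and Myl7 lay above the percentile in all 10. The probe set named for the cardiac myosin Myh6, of a kind that can match related myosins, measured 4638 or more in each. Tnnt2 lay above the percentile in 5 diabetic and 4 treated arrays, Tnni3 in 4 and 1, and Nppa in 0 and 2.

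Treatment lowered far more of the muscle transcripts that passed the threshold than it raised. Of 6027 probe sets, 30 passed (0.498%), 27 lower (0.448%) and 3 higher (0.0498%) in treated muscle, and 985 (16.3%) had an unadjusted p under 0.05. Counted once per gene symbol, 23 of 3582 genes passed (0.642%): 20 fell (0.558%) and 3 rose (0.0838%). The genes that fell encode muscle stress proteins, macrophage and complement proteins, lipid-handling proteins and secreted matrix proteins, and the 3 that rose were Adprs, Nr4a1 and Ndufb9. Among all tested genes the direction was tilted the other way, with 58.4% of genes above 0 and a median change of 0.10. For 25 of the 30 probe sets, 23 lower and 2 higher, the 5 treated values did not overlap the 5 untreated ones; over all tested probe sets this held for 268 (4.45%).

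**Figure D1:**
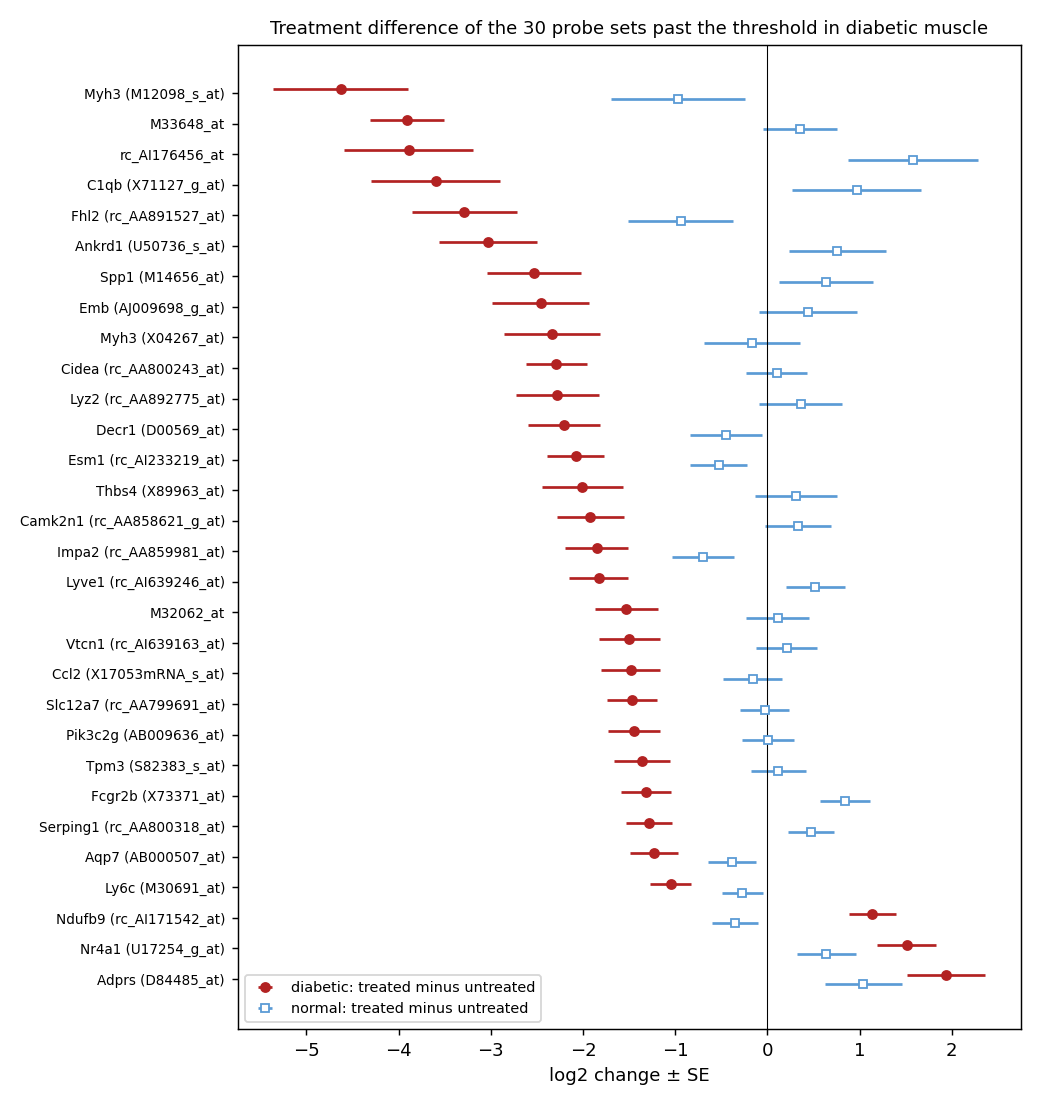
Log2 change with vanadyl sulfate (± SE, 5 arrays per group) for the 30 probe sets past the threshold in diabetic muscle, in filled red circles, with the change of the same probe sets in normal muscle in open blue squares. The diabetic changes run from -4.63 (Myh3) to 1.94 (Adprs); none of the 30 passed the threshold in normal muscle.

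Ankrd1, Fhl2 and Myh3, all on the list of stretch and denervation genes, fell. Ankrd1 (U50736_s_at) encodes a titin-bound ankyrin repeat protein induced by stretch. Its signal was 16285, 18198, 17292, 16634 and 3383 in diabetic replicates 1 to 5, and 1788, 1533, 566, 4784 and 995 in treated replicates 1 to 5. Diabetic replicate 5 stood apart from the other 4 of its group and lay under treated replicate 4, so the groups overlapped. Its mean log2 value was 13.60 ± 1.04 in diabetic and 10.56 ± 1.13 in treated muscle (SD, n = 5 each). Ankrd1 fell 8.19-fold (-3.03 ± 0.53, adjusted p = 0.0118). The untreated normal arrays held 1478, 709, 1204, 913 and 835, a range that the treated arrays spanned.

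Fhl2 (rc_AA891527_at), a LIM-domain adaptor of the sarcomere and nucleus, measured 1302, 1072, 952, 1218 and 227 in diabetic muscle and 62.5, 45.0, 110, 46.7 and 105 in treated muscle. The groups did not overlap, although diabetic replicate 5 again stood apart and all 5 treated arrays were dim. Fhl2 fell 9.81-fold (-3.29 ± 0.57, adjusted p = 0.0118). Its treated signals also lay under all 5 untreated normal arrays, at 617, 204, 248, 139 and 289. With 200 in place of 16 added before the logarithm, the change was -1.96.

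Fhl2 is shown with its promoters because, of the 13 fallen genes found in the promoter table, it alone has both a muscle motif and a TATA box in 1 promoter. RefSeq (GRCr8) lists 2 start sites, and the 250 bases before each are printed here in lower case, 5' to 3' on the minus strand, with matches to the searched motifs in capitals. The first lies at chr9:52954541-52954790 and holds the M-CAT letters CATTCC 36 to 31 bases before the start, then the TATA letters (TATAAA, read here on the opposite strand as TTTATA) 27 to 22 bases before it. The second lies at chr9:52923327-52923576 and holds none of the 4 motifs searched.
Fhl2 promoter 1: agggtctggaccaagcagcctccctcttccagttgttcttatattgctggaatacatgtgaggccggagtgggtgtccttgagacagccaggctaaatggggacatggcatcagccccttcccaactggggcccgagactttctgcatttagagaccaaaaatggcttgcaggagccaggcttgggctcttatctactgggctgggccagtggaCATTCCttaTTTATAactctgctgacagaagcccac
Fhl2 promoter 2: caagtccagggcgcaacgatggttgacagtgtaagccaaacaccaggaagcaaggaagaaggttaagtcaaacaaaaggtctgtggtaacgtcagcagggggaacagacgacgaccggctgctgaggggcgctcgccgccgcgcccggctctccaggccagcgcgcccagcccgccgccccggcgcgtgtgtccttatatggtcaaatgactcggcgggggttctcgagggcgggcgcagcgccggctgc
The search covered both strands for M-CAT (CATTCC), the AP-1 site (TGANTCA), the TATA box (TATAAA) and a muscle E-box (CAGCTG). Of the 20 genes that fell, 13 were found in the RefSeq table, with 16 promoters. The M-CAT letters were in 3 of the 16 (Fhl2, Pik3c2g and Thbs4), against 12.1% of all 33469 promoters. The TATA letters were in 3 (Fhl2, Myh3 and Spp1; 12.9% of all), the E-box letters in 2 (Pik3c2g and Tpm3; 12% of all) and the AP-1 letters in 1 (Vtcn1; 6.34% of all). Such matches describe the letters in these windows only.

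Myh3 encodes the embryonic myosin heavy chain, which adult fibres re-express when they regenerate. Its brightest probe set, X04267_at, measured 63137, 28876, 74175, 26452 and 5022 in diabetic and 5668, 3668, 6116, 5939 and 7098 in treated muscle. Diabetic replicate 5 lay within the treated range, and the other 4 stood above it. Myh3 fell 5.06-fold by this probe set (-2.34 ± 0.52, adjusted p = 0.0471). A further probe set, M12098_s_at, gave the largest change of all, -4.63 ± 0.73 (adjusted p = 0.00503), from 20489, 6508, 15988, 6129 and 544 to 167, 185, 111, 391 and 402. The third, K03468_s_at, did not pass (-0.46 ± 0.37, adjusted p = 0.546). The myosin genes are alike in sequence, so how much each probe set reads of Myh3 alone is uncertain.

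Other members of the stretch and denervation list had negative values that did not pass. The list held 20 tested genes, with 3 lower and none higher, and the background shares are 0.558% and 0.0838%. Chrnd, the delta subunit of the muscle acetylcholine receptor, measured 854 to 1282 in diabetic and 92.8 to 776 in treated arrays (-1.89 ± 0.50, adjusted p = 0.103). Gadd45a, a growth arrest gene that denervation induces, had a change of -1.63 ± 0.45 (adjusted p = 0.115), the cardiac actin Actc1, re-expressed in damaged fibres, one of -2.62 ± 0.76, equal to its change in normal muscle, and the muscle LIM protein Csrp3 one of -1.81 ± 0.53 (adjusted p = 0.122 for both). In contrast, the other acetylcholine receptor subunits Chrng, Chrnb1 and Chrne had values of 0.37, 0.48 and 0.26, Chrna1 of -0.39, and the myogenic regulator Myod1 of 0.00. The list median was -0.40 against 0.10 over all tested genes. A list score, the mean over members of the difference from the diabetic mean, was between 0.15 and 0.22 in diabetic replicates 1 to 4 and -0.72 in replicate 5, and between -1.25 and -0.57 in treated arrays. Diabetic replicate 5 therefore lay among the treated arrays on this score.

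**Figure D2:**
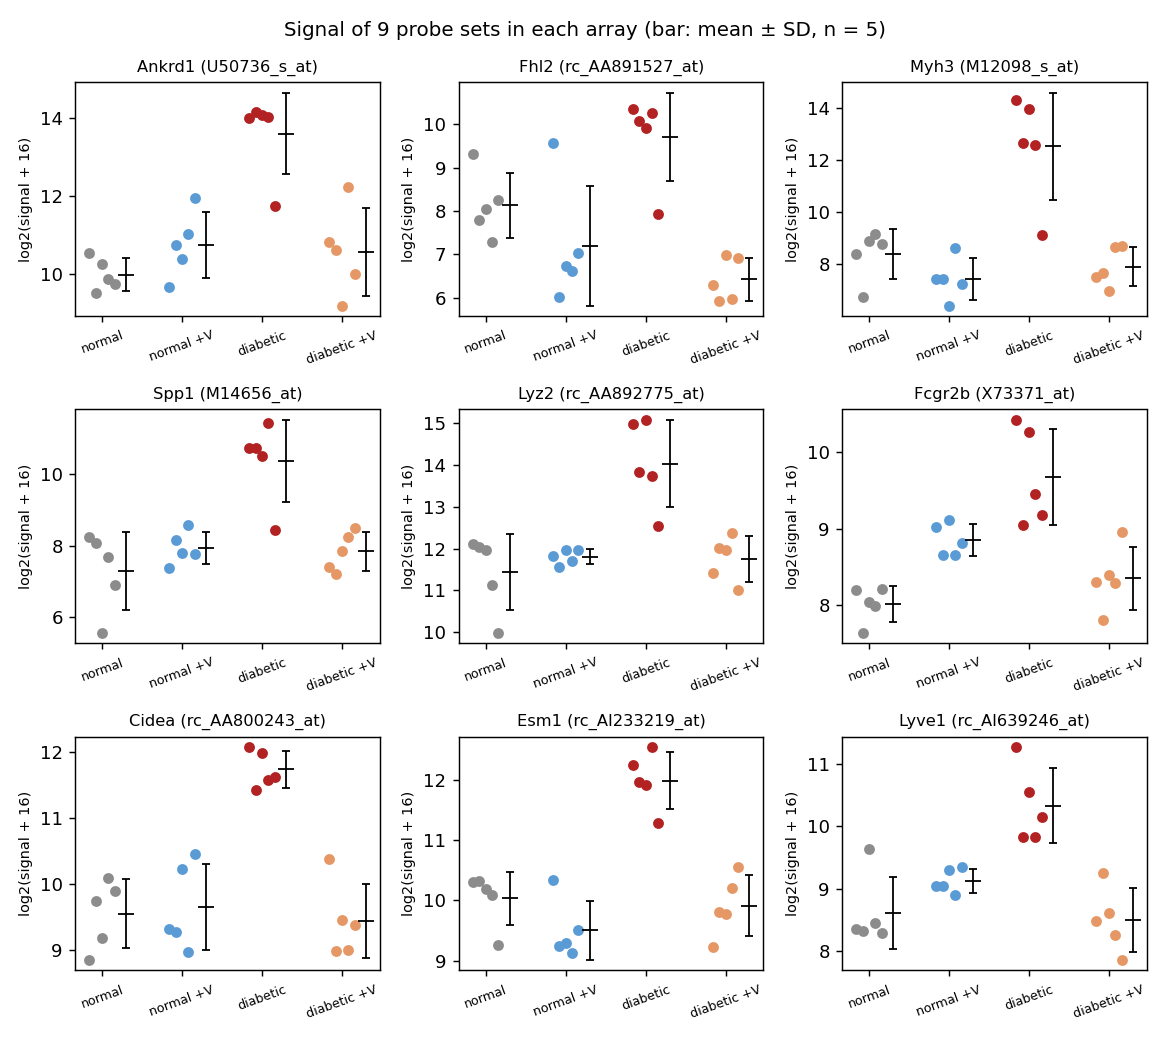
Signal of 9 probe sets past the threshold, as log2(signal + 16), in every array of the 4 groups (+V, given vanadyl sulfate); bars are mean ± SD of 5 arrays. For Ankrd1, Fhl2, Myh3 (M12098_s_at), Spp1, Lyz2 and Esm1 diabetic replicate 5, the rightmost red point, is the lowest of its group. The diabetic and treated diabetic values overlap for Ankrd1 and Spp1 only, and in the other probe sets all 5 diabetic values lie above every treated diabetic one.

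Slow fibre genes had lower values with treatment as well. All 10 tested members had a negative change, with a median of -1.53 and a range of -3.29 to -0.60. Fhl2 and Tpm3, the tropomyosin of slow fibres, passed, 2 of 10 against the 0.558% of all genes that fell. Fhl2, the gene with the -3.29, is also 1 of the 3 stretch and denervation genes that fell, so these 2 lists share a call. Troponin Tnni1, the light chain Myl2 and the calcium store protein Casq2 had changes of -1.73 ± 0.57, -1.89 ± 0.74 and -1.70 ± 0.51 (adjusted p = 0.164, 0.23 and 0.122). The slow myosin Myh7 had -1.12 and the light chain Myl3 -0.60. Tpm3 (S82383_s_at) measured 14223, 8811, 15293, 9187 and 9467 in diabetic and 8824, 4324, 2388, 4474 and 3622 in treated muscle, and fell 2.57-fold (-1.36 ± 0.30, adjusted p = 0.0471). Only treated replicate 1 overlapped the diabetic range. The dimmer Tpm3 probe sets did not follow it: L24776_at gave 1.63 ± 0.65 (adjusted p = 0.231) and rc_AA859305_s_at -0.28 ± 0.40 (adjusted p = 0.756). The slow fibre score was 0.29, 0.31, 0.36, 0.12 and -1.08 in diabetic replicates 1 to 5 and -0.45, -2.33, -0.79, -1.56 and -2.52 in treated replicates 1 to 5. The groups overlapped, with diabetic replicate 5 under treated replicates 1 and 3, and the normal arrays given vanadyl sulfate were spread alike, from -1.90 to -0.45. In the normal comparison, which shares no array with the diabetic one, the list median was -0.77. How much slow muscle each piece of tissue held was not measured, and its part in these values was not tested.

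Fast fibre genes were not past the threshold in either direction. Of 14 tested, 11 had a positive change (background 58.4% of genes), with a median of 0.53; Myh1 had 1.04 ± 0.36, parvalbumin, Pvalb, 0.93 ± 0.35, and the fast troponin Tnni2 0.72 ± 0.30 (adjusted p = 0.182, 0.221 and 0.248). Quantile normalization moved this median to 0.02, so a positive shift of the fast fibre genes depends on the scaling. In normal muscle the median was -0.60.

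Camk2n1, whose protein blocks CaM kinase II, fell 3.77-fold (-1.92 ± 0.36, adjusted p = 0.0158). Its signal was 963, 792, 1364, 978 and 718 in diabetic and 223, 412, 161, 244 and 205 in treated muscle. The groups did not overlap, and 4 of the 5 treated arrays were dim. Of the 25 tested genes of calcium handling and creatine kinase, the other 24 did not pass (0.642% of all genes passed). Ckmt2, the mitochondrial creatine kinase that passes phosphate from new ATP to creatine, was nearest: it measured 23727, 41399, 19708, 41748 and 38073 in diabetic and 114615, 60012, 95038, 56943 and 106849 in treated muscle. Its groups did not overlap (1.40 ± 0.35, adjusted p = 0.0813).

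Macrophage and leukocyte markers made up the next group of falls. Of 20 tested genes, 3 fell and none rose (0.558% and 0.0838% of all genes). Of the 20, 11 were lower at an unadjusted p under 0.05 (background 6.95%), and 7 did not overlap in the lower direction (background 2.04%). Lyz2, the lysozyme of macrophages and neutrophils, measured 32231, 14604, 34588, 13575 and 5914 in diabetic and 2701, 4092, 4008, 5297 and 2042 in treated muscle. It fell 4.85-fold (-2.28 ± 0.45, adjusted p = 0.0219). Diabetic replicates 1 and 3 were the brightest, at more than any other array. The inhibitory Fc receptor Fcgr2b measured 1355, 515, 1214, 689 and 565 in diabetic and 300, 209, 320, 298 and 480 in treated muscle. It fell 2.50-fold (-1.32 ± 0.27, adjusted p = 0.0335), with the same 2 diabetic arrays highest. Ccl2, the chemokine that draws monocytes into tissue, fell 2.79-fold by its brighter probe set (-1.48 ± 0.32, adjusted p = 0.0387) and did not pass by the other (-0.91 ± 0.32, adjusted p = 0.193). It measured 4353, 1762, 2635, 2244 and 1148 in diabetic and 683 to 1014 in treated muscle.

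Of the 20 members 18 had a negative and 2 a positive change, and 17 did not pass. The actin-binding protein of leukocytes Coro1a measured 5154, 276, 5620, 846 and 282 in diabetic and 78.9, 395, 289, 53.9 and 50.2 in treated muscle (-3.05 ± 0.74, adjusted p = 0.0726). Diabetic replicates 1 and 3 stood far above the other 8 arrays. The complement subunit C1qb gave -1.76 ± 0.43 (adjusted p = 0.0726) with its brightest probe set and passed with another, X71127_g_at (-3.60 ± 0.70, adjusted p = 0.0201). That probe set measured 5574, 3068, 4651, 3080 and 2682 in diabetic and 184, 1894, 1125, 78.4 and 47.0 in treated muscle, without overlap. Lgals3, Cd53, Ctss, Cd14, Cd37 and Cd74 had changes of -1.02, -1.46, -1.27, -0.83, -1.19 and -1.56. The T-cell markers Cd4 and Cd3g gave 0.68 and -0.35, Cd8a -0.55 and the pan-leukocyte Ptprc -0.13. The list median was -1.11 against 0.10 over all tested genes.

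The leukocyte score was not even among the diabetic arrays. Diabetic replicates 1 to 5 scored 0.80, -0.55, 0.72, -0.31 and -0.67, against -0.93, -0.77, -0.70, -1.35 and -1.18 in treated replicates 1 to 5. The lowest diabetic array lay only just above the highest treated one. The summed signal of the 20 genes ran from 39605 to 128761 in diabetic and from 21278 to 32310 in treated muscle. Without diabetic replicates 1 and 3 together, a choice made after seeing the data, the median was -0.62 and none of the list passed. On the slow fibre list the same choice left a median of -1.26 with none past, and leaving out treated replicates 1 and 3 instead gave -1.96 with 4 past. Itgam was dim in all 10 arrays and Csf1r in all but 1; both are defining receptors of myeloid cells and macrophages. Whether the lower marker values contribute to other falls was not tested.

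Further immune and vessel genes outside the list also fell. Lyve1, the hyaluronan receptor of lymphatic vessels and some tissue macrophages, measured 2448, 898, 1480, 899 and 1124 in diabetic and 341, 595, 377, 290 and 217 in treated muscle. It fell 3.56-fold (-1.83 ± 0.32, adjusted p = 0.0118) without overlap. Serping1, the C1 inhibitor of complement, measured 5452, 4112, 6105, 3687 and 4455 against 2491, 2285, 2362, 1534 and 1262, and fell 2.43-fold (-1.28 ± 0.25, adjusted p = 0.0201). Vtcn1, a B7 family ligand that restrains T cells, fell 2.83-fold (-1.50 ± 0.33, adjusted p = 0.0409) and the membrane antigen Ly6c 2.07-fold (-1.05 ± 0.22, adjusted p = 0.0387). Ly6c was tight in diabetic muscle, from 1468 to 1626, and lay between 500 and 1084 in treated muscle. A probe set annotated to both Fcgr2a and Fcgr2al1, M32062_at, had a change of -1.53 ± 0.34 (adjusted p = 0.0455) and is not assigned to either. Esm1, a proteoglycan secreted by endothelium, measured 4846, 3959, 3839, 5929 and 2471 in diabetic and 583, 875, 855, 1171 and 1486 in treated muscle. It fell 4.22-fold (-2.08 ± 0.31, adjusted p = 0.00299), and the groups did not overlap. The other endothelial markers did not share this: of 9 tested, Esm1 alone passed (0.558% of all genes fell) and the median was 0.15. Pecam1, the adhesion molecule of all endothelium, gave -1.20 ± 0.63 (adjusted p = 0.353).

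Of 37 tested extracellular matrix genes, Spp1 and Thbs4 fell and none rose (0.558% and 0.0838% of all genes). A further part of the list did not pass: 9 of the 37 were lower and 2 higher at an unadjusted p under 0.05 (background 6.95% and 8.93%), and the median was -0.24. Spp1, the secreted phosphoprotein osteopontin, measured 1705, 1680, 1449, 2773 and 330 in diabetic and 155, 132, 214, 291 and 346 in treated muscle. It fell 5.76-fold (-2.53 ± 0.51, adjusted p = 0.0281), although diabetic replicate 5 lay within the treated range and 3 treated arrays were dim. Thbs4, a thrombospondin of tendon and muscle matrix, measured 14768, 10894, 13592, 9466 and 14533 against 1089, 6434, 1623, 4619 and 5304, and fell 4.02-fold (-2.01 ± 0.44, adjusted p = 0.0409). It is also 1 of 12 tested tendon and fibroblast markers, of which no other passed and whose median was -0.20. Lox, the collagen cross-linking enzyme, did not pass (-1.76 ± 0.41, adjusted p = 0.0647). Col15a1, a basement membrane collagen, had a value in the other direction without overlap (1.06 ± 0.31, adjusted p = 0.122).

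Among genes of lipid and fuel use, Cidea, Decr1 by 1 probe set and Aqp7 fell, while the lists that cover this area (lipid synthesis, PPAR-linked fasting genes, and uptake and oxidation of fatty acids) held no gene past the threshold. Cidea, a lipid droplet protein, measured 4268, 2735, 4041, 3021 and 3119 in diabetic and 1317, 495, 685, 496 and 655 in treated muscle. It fell 4.88-fold (-2.29 ± 0.33, adjusted p = 0.00299), and treated values lay within or just above the normal range of 448 to 1072. Decr1, a mitochondrial reductase needed to oxidise unsaturated fatty acids, passed with 1 of its 2 probe sets: D00569_at measured 9165, 9786, 9293, 12792 and 9501 against 2101, 2346, 2052, 4012 and 1140 (-2.21 ± 0.39, adjusted p = 0.0122). The brighter D00569_g_at also did not overlap and gave -1.31 ± 0.31 (adjusted p = 0.065). Aqp7, the channel that carries glycerol out of fat cells, measured 2699 to 3118 in diabetic and 2303, 697, 1046, 1578 and 985 in treated muscle, a 2.35-fold fall (-1.23 ± 0.26, adjusted p = 0.0387). Fat cell markers were mixed beside it: of 9 tested, Cidea passed (0.558% of all genes fell). The hormone-sensitive lipase Lipe gave -0.84 ± 0.27 (adjusted p = 0.155), leptin, Lep, 0.23 and adipsin, Cfd, -0.13. The fat cell score ran from -0.23 to 0.31 in diabetic and from -0.54 to -0.08 in treated arrays. The lipid droplet coat protein of fat cells, Plin1, was dim in all 10 arrays and Pck1 in all but 1.

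None of the 20 tested PPAR-linked fasting genes passed, yet several did not overlap. Pdk4, the kinase that shuts off pyruvate dehydrogenase in fasting, measured 1157, 4744, 981, 4544 and 626 in diabetic and 84.8, 495, 58.4, 407 and 64.8 in treated muscle. Every treated array lay under every diabetic one, but within each group replicates 2 and 4 stood above replicates 1, 3 and 5, and the fit's spread was wide (-3.38 ± 1.16, adjusted p = 0.178). Untreated normal muscle ran from 32.0 to 10249. Cd36, the fatty acid transporter, also did not overlap, with 230, 1607, 124, 1482 and 337 against 44.1, 75.6, 33.2, 52.1 and 84.6 (-2.79 ± 1.00, adjusted p = 0.2). Its diabetic replicates 2 and 4 stood above the other 3. All 5 treated arrays were dim for Cd36, and 3 of the 5 diabetic arrays were not. Ucp3, the uncoupling protein of muscle, was tighter within both groups, with 5392 to 9179 in diabetic and 1818 to 2880 in treated muscle. Its change was -1.64 ± 0.66 (adjusted p = 0.238), where the spread taken from all 4 groups includes normal arrays from 1270 to 16135. The lipid droplet coat protein Plin2 measured 3439 to 6636 against 1498 to 2631 (-1.21 ± 0.30, adjusted p = 0.0816) and Txnip, which restrains glucose uptake, 42657 to 56213 against 20984 to 36835 (-0.81 ± 0.22, adjusted p = 0.102), each without overlap. Of the 20 genes 5 did not overlap in the lower direction (background 2.04%), and the median was -0.18. The carnitine transferases Cpt1a and Cpt1b gave -1.28 ± 0.36 and -0.82 ± 0.34, Lpl -0.07, Fabp3 0.02 and the desaturase Scd 0.63 ± 1.00; none passed.

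Other falls belonged to signalling and transport. Pik3c2g, a class II phosphoinositide 3-kinase, measured 1164, 1689, 977, 2017 and 1941 in diabetic and 554, 405, 470, 676 and 622 in treated muscle, a 2.74-fold fall (-1.45 ± 0.28, adjusted p = 0.0201). It was the only 1 of 38 tested insulin and IGF signalling genes past the threshold (0.642% of all genes passed). The list median was 0.12, near the 0.10 of all genes. The insulin-regulated glucose transporter Slc2a4 had 0.72 ± 0.29 (adjusted p = 0.238), hexokinase Hk2 1.03 ± 0.47, Irs1 0.66 ± 0.35 and the insulin receptor Insr -0.17 ± 0.36. Lnpep, an aminopeptidase that travels with the glucose transporter, measured 248, 231, 64.0, 232 and 84.2 against 468, 315, 392, 458 and 474, without overlap (1.37 ± 0.37, adjusted p = 0.104). Only 1 of its 5 diabetic values was not dim. Protein tyrosine and dual-specificity phosphatases, the enzyme class that vanadium inhibits, gave no call among 26 tested, where the share over all genes is 0.642%. In this list 1 gene had an unadjusted p under 0.05 (Ptpn6, of blood cells, -1.35 ± 0.63; background 6.95% lower and 8.93% higher), the median was 0.20, and Ptpn1, which acts on the insulin receptor, had 0.21 ± 0.24. Impa2, an inositol monophosphatase, measured 2912, 3047, 2833, 3018 and 4419 against 1756, 756, 800, 1040 and 466, a 3.60-fold fall (-1.85 ± 0.34, adjusted p = 0.0136). Slc12a7, a potassium chloride cotransporter, measured 1491 to 1965 against 286 to 906 and fell 2.77-fold (-1.47 ± 0.27, adjusted p = 0.0136). Emb, a partner protein of lactate transporters, fell 5.51-fold by 1 probe set (AJ009698_g_at, -2.46 ± 0.53, adjusted p = 0.0387), with all 5 treated arrays dim. With 200 added before the logarithm that change was -1.39, and its brighter probe set AJ009698_at gave 0.26 ± 0.24 (adjusted p = 0.615).

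Among probe sets without a single gene name, M33648_at came first by p-value. It measured 1590, 513, 1183, 857 and 3410 in diabetic and 90.3, 48.1, 64.7, 53.1 and 90.0 in treated muscle (-3.91 ± 0.40, adjusted p = 3.08e-05). The treated values were all dim, so the size of its fold rests on low signals. It lay above the percentile in 5 of the 20 arrays, the 5 untreated diabetic ones, and so was tested only because of that group. A probe set annotated to the metallothioneins Mt1m and Mt2A, small proteins that bind zinc and copper, rc_AI176456_at, measured 61971, 33762, 75916, 29888 and 24069 against 1808, 1081, 2047, 8110 and 4797. It gave -3.89 ± 0.70 (adjusted p = 0.0131), without overlap. The antioxidant and metal response list held 36 other tested genes, of which none passed; its median was -0.20, and the glutathione transferase Gstm5 did not overlap (-2.03 ± 0.63, adjusted p = 0.14).

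Of the 3 genes that rose, Nr4a1, an orphan nuclear receptor that exercise induces in muscle, measured 5347, 6079, 4432, 10032 and 12907 in diabetic and 20618, 14718, 15589, 35010 and 21066 in treated muscle. It rose 2.84-fold (1.51 ± 0.32, adjusted p = 0.036) without overlap. Its dimmer probe set U17254_at gave 0.72 ± 0.56 (adjusted p = 0.536). No other of the 25 tested immediate early genes passed; Atf3 had 1.13 ± 0.37 and Junb -0.89 ± 0.39, and the list median was 0.02. Adprs, an enzyme that removes ADP-ribose from serines, rose 3.83-fold (1.94 ± 0.42, adjusted p = 0.0409), from 92.4, 215, 132, 149 and 428 to 806, 418, 754, 820 and 963. The groups overlapped through diabetic replicate 5 and treated replicate 2, and 4 of the 5 diabetic arrays were dim.

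Ndufb9, a subunit of respiratory complex I, measured 38837, 33890, 32335, 37402 and 37430 in diabetic and 106802, 65065, 69608, 74405 and 85526 in treated muscle. It rose 2.20-fold (1.14 ± 0.25, adjusted p = 0.0409) without overlap. The other oxidative phosphorylation genes had small positive values that did not pass on their own. Of 46 tested, 43 were above 0 (background 58.4%), 32 were higher at an unadjusted p under 0.05 (background 8.93%) and 18 did not overlap in the higher direction (background 2.51%). The median was 0.72 against 0.10 over all tested genes. The medians were close across the chain: 0.74 for 19 genes of complex I, 0.75 for 3 of complex III, 0.61 for 12 of complex IV and 0.71 for 10 of ATP synthase. Cox5a of complex IV had the largest change, 1.29 ± 0.36 (adjusted p = 0.118), and Atp5pb, a stalk subunit of ATP synthase, measured 12753 to 20798 against 27109 to 32225 (0.83 ± 0.23, adjusted p = 0.109). At the other end stood Ndufs1 (-0.29), the ATP synthase inhibitor Atp5if1 (-0.27) and Atp5f1d (-0.10).

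**Figure D3:**
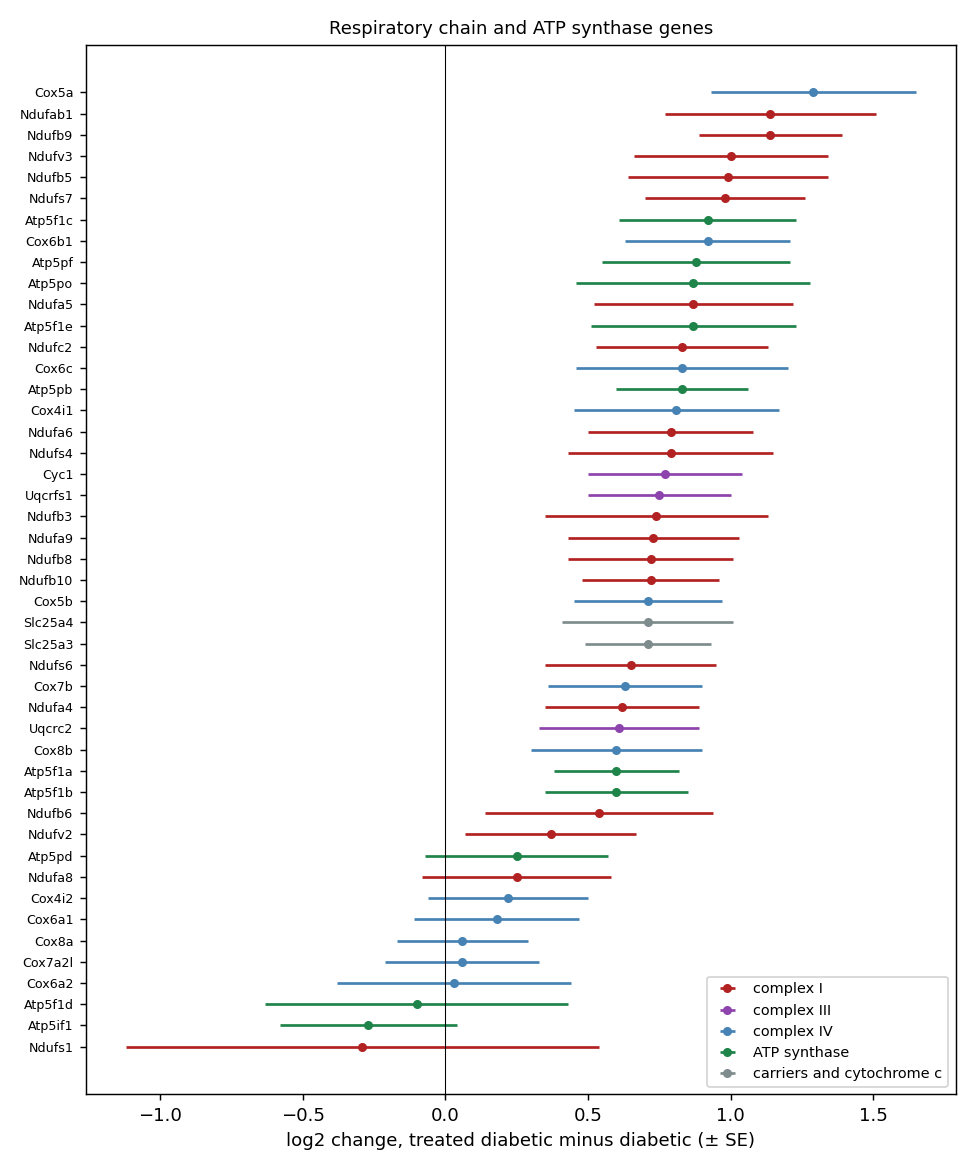
Log2 change (treated diabetic minus diabetic, ± SE, 5 arrays per group) of the 46 tested genes of the respiratory chain, ATP synthase and their carriers, coloured by complex and sorted by change. Of the 46, 43 lie to the right of 0, from 0.03 to 1.29, and Ndufb9 (1.14) is the gene past the threshold.

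The score of this list was between -0.14 and 0.28 in diabetic and between 0.40 and 0.92 in treated muscle, with no overlap, and treated replicate 1, the array of highest Gapdh ratio, had the highest score. Without the 3 arrays of high Gapdh ratio, a choice made after seeing the data, the median was 0.66. Quantile normalization gave 0.47; Ndufb9 did not pass in either fit. In normal muscle, whose arrays are not shared, the median change was -0.36. The 19 tested skeletal muscle fibre markers moved in the same directions, with a median of 0.64 in diabetic and -0.47 in normal muscle. Of these, none passed, 7 were higher at an unadjusted p under 0.05 (background 8.93%) and 3 did not overlap (background 2.51%). Quantile normalization moved their diabetic median to 0.04. The citrate cycle and pyruvate entry list had a median of 0.47 with none of 23 past the threshold and 10 higher at an unadjusted p under 0.05 (background 8.93%). Got1, the aspartate aminotransferase, measured 9549 to 17385 against 19859 to 41566 (0.97 ± 0.28, adjusted p = 0.122), and the pyruvate carrier Mpc1 had 0.97 ± 0.29 (adjusted p = 0.122). When all probe sets of a gene were averaged, the list median was 0.04.

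**Figure D4:**
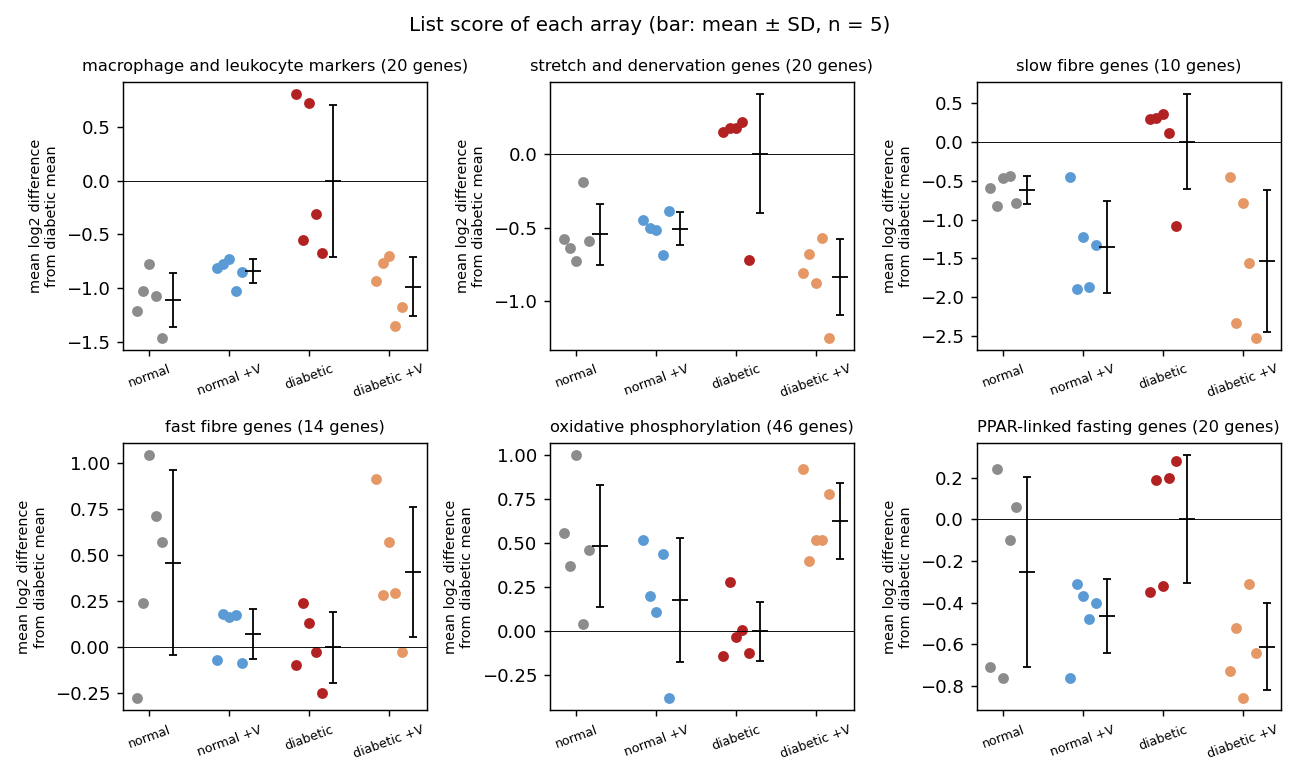
List score of each array for 6 gene lists: the mean over the tested members of the log2 difference from the mean of the diabetic arrays, with mean ± SD of 5 arrays. The oxidative phosphorylation scores of diabetic (-0.14 to 0.28) and treated diabetic arrays (0.40 to 0.92) do not overlap, and diabetic replicates 1 and 3 stand at 0.80 and 0.72 on the leukocyte score.

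The remaining lists held no gene past the threshold beyond those named. None of 37 ribosomal protein genes (median -0.03), 30 ubiquitin and proteasome genes (0.09), 29 chaperones (-0.07), 25 glycolysis and glycogen genes (0.23), 23 lipid and cholesterol synthesis genes (0.06), 30 fatty acid uptake and oxidation genes (-0.05, by the probe sets that stand for each gene) or 10 heme genes (0.18) passed, and the same held for 8 smooth muscle (-0.34), 9 nerve and Schwann cell (0.22), 6 heart (-0.63), 3 mast cell (-0.39) and 5 blood cell markers (0.20). By limma these lists gave 0 calls, where the share over all genes is 0.642%. At an unadjusted p under 0.05 some of them held more genes than the background of 8.93% higher and 6.95% lower. Of 25 glycolysis and glycogen genes 9 were higher and 3 lower. Of 30 fatty acid uptake and oxidation genes 1 was higher and 6 lower, and of 6 heart markers 3 were lower. Aldoc, a brain-type aldolase, had the deepest value among the glycolytic genes and did not overlap: 853, 388, 842, 333 and 828 in diabetic against 121, 95.3, 134, 181 and 139 in treated muscle (-2.06 ± 0.49, adjusted p = 0.065). Its 5 treated values were all dim.

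Genes next to the threshold on the rising side were few. Tubgcp4, of the gamma-tubulin complex, gave 1.55 ± 0.38 (adjusted p = 0.0726), the mevalonate kinase Mvk 1.22 ± 0.31 and the proline-rich protein gene Prp15 1.67 ± 0.42 (adjusted p = 0.0816 for both), Smcp 1.87 ± 0.48 (adjusted p = 0.0818), Pmpca, a peptidase that trims proteins entering mitochondria, 0.83 ± 0.21 (adjusted p = 0.0964) and the surface protein Cd24 1.39 ± 0.37 (adjusted p = 0.101). The largest rise without overlap that missed was that of Nipsnap2, a mitochondrial protein (1.69 ± 0.45, adjusted p = 0.103), from 1590 to 3030 in diabetic to between 3618 and 21675 in treated muscle. Among falls of that kind were Sncg (-2.11 ± 0.71, adjusted p = 0.169), Cyba, a subunit of the phagocyte oxidase (-2.05 ± 0.55, adjusted p = 0.103), and Gpam, the first enzyme of glycerolipid synthesis (-1.84 ± 0.54, adjusted p = 0.122). For Gpam all 5 treated arrays were dim.

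Whether the response depended on diabetes was asked with the interaction, the treatment change in diabetic muscle minus that in normal muscle. Of 6027 probe sets 10 passed (0.166%), all negative, and 800 (13.3%) had an unadjusted p under 0.05. Of these, 7 were among the 30 above: M33648_at (-4.26 ± 0.57, adjusted p = 0.0019), the metallothionein probe set rc_AI176456_at (-5.47 ± 0.99, adjusted p = 0.0315), Ankrd1 (-3.80 ± 0.75), Cidea (-2.39 ± 0.47), Lyve1 (-2.35 ± 0.45), Fcgr2b (-2.16 ± 0.39) and Serping1 (-1.75 ± 0.35), the last 5 with adjusted p from 0.0315 to 0.0442. Alox5ap, which feeds arachidonic acid to the leukotriene pathway, passed the interaction and not the diabetic comparison, with 962 to 1466 in diabetic and 253 to 893 in treated diabetic muscle, but 165 to 870 in normal and 811 to 1584 in treated normal muscle (-2.98 ± 0.55, adjusted p = 0.0347). Lox passed it too (-2.93 ± 0.58, adjusted p = 0.0442), with a change of 1.17 in normal muscle. The unnamed rc_AA859832_at (-1.98 ± 0.35, adjusted p = 0.0315) had changes of -0.66 ± 0.25 in diabetic (adjusted p = 0.215) and 1.31 ± 0.25 in normal muscle, where it passed (adjusted p = 0.0497). In normal muscle itself 4 of 6027 probe sets passed (0.0664%, 556 or 9.23% at an unadjusted p under 0.05), none of them among the 30, and 17 of the 27 probe sets that fell in diabetic muscle had a positive change there (the median over all genes was 0.17). Without diabetic replicate 1, 3 or 4 or treated replicate 3, with quantile normalization, or with no filter on low values, M33648_at alone passed the interaction. For Fhl2, Myh3, Impa2 and Aqp7 the normal change was negative too (-0.94, -0.17, -0.70 and -0.38), and the interaction did not pass for them (adjusted p = 0.2, 0.2, 0.302 and 0.328).

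How far the calls rest on single arrays differed by gene. With each of the 10 arrays left out in turn, 9 of the 30 probe sets passed every time: M33648_at, Myh3 (M12098_s_at), Fhl2, Ankrd1, Cidea, Esm1, Lyve1, Decr1 (D00569_at) and Impa2. Slc12a7 and the metallothionein probe set lost their call only without diabetic replicate 3 (adjusted p = 0.0603 and 0.0531), Serping1 without diabetic replicate 1 or 3 (at most 0.0977), Camk2n1 without replicate 3 of either group (at most 0.0744) and C1qb by X71127_g_at without replicate 1 of either group or diabetic replicate 3 (at most 0.0798). Lyz2 lost it without diabetic replicate 1 or 3 or treated replicate 1 or 5, with an adjusted p of at most 0.102, and Pik3c2g without diabetic replicate 2 or 4 or treated replicate 3 (at most 0.0729). Spp1 and Nr4a1 each lost it in 6 of the 10 fits (at most 0.0977 and 0.149), and Fcgr2b, Thbs4, Emb and Vtcn1 in 7 (at most 0.149, 0.149, 0.151 and 0.149). Tpm3, Ndufb9 and Myh3 by X04267_at each lost it in 9 of the 10 fits (at most 0.188, 0.149 and 0.188), and Adprs, Ccl2, Aqp7, Ly6c and M32062_at in 8 (at most 0.151, 0.149, 0.149, 0.139 and 0.152). The counts were 13 without diabetic replicate 1, 19 without 2, 10 without 3, 17 without 4 and 41 without 5, and 20, 54, 17, 34 and 23 without treated replicates 1 to 5. Without diabetic replicates 1 and 3 together, M33648_at alone passed (adjusted p = 0.00198), while 535 probe sets had an unadjusted p under 0.05. Ankrd1, Fhl2 and Cidea then had changes of -2.74, -3.01 and -2.09 (adjusted p = 0.221, 0.221 and 0.0688) and Lyz2 of -1.61 (adjusted p = 0.407). In every alternative that tested them, the 30 kept their direction. Ankrd1, Lyve1, Impa2 and Myh3 (M12098_s_at) did not pass with the 10 diabetic arrays alone in the fit. Their adjusted p was 0.065, 0.065, 0.0594 and 0.0612 (limma). With 200 added before the logarithm, the changes of M33648_at, Myh3 (M12098_s_at), C1qb (X71127_g_at), Spp1 and Adprs were -2.45, -3.87, -2.71, -1.89 and 1.26, each nearer to 0 than with 16.

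**Figure D5:**
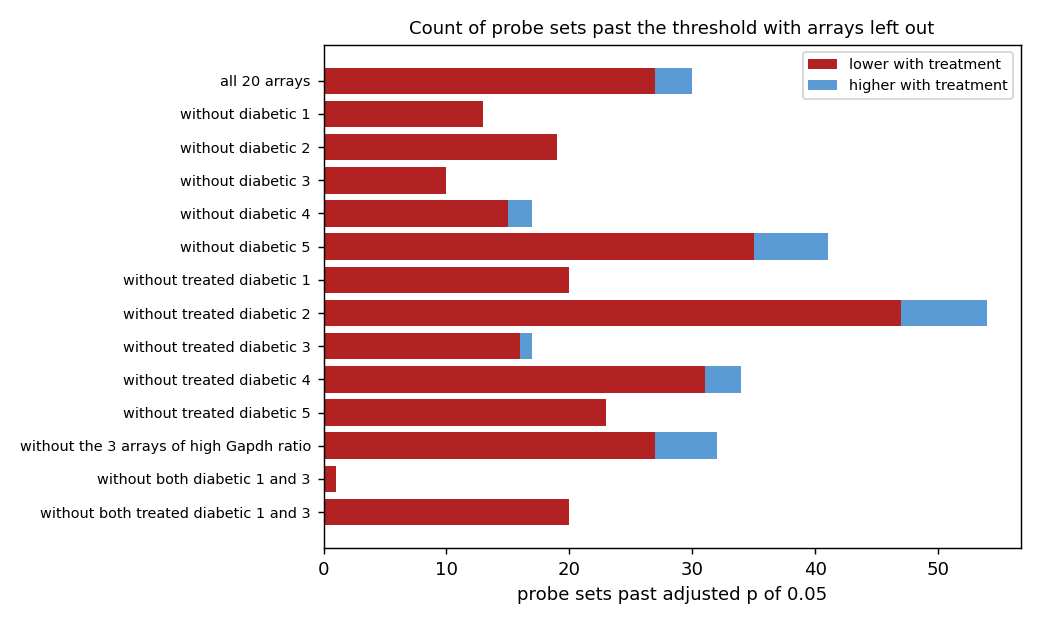
Number of probe sets past the adjusted p of 0.05, treated diabetic against diabetic, lower in red and higher in blue, in the fit of all 20 arrays and with arrays left out. The count is 30 with all arrays, runs from 10 to 54 with 1 array left out, and is 1 without both diabetic replicates 1 and 3.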

How the data were processed

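Muscle poly(A) RNA was hybridised to an Affymetrix rat expression array, 1 array per sample. The authors deposited 1 table of linear probe set intensities, for which the submitters' processing notes name MAS5. The 2% trimmed mean was 2503.4 to 2506.5 on the 20 arrays, and this scaling was kept. The number of arrays, 5 per group, limits the precision. After leaving out 59 control probe sets of 8799, 6027 of 8740 probe sets (69.0%) were tested. These were brighter than the 40th percentile of their array on 5 or more of the 20. M33648_at met this filter through the untreated diabetic arrays alone. Of the arrays above that level, 5 of 6 for Camk2n1, 4 of 6 for Fhl2, 5 of 7 for Emb (AJ009698_g_at) and 5 of 9 for Spp1 were untreated diabetic. A fit of 4 group means to log2(signal + 16) on all 20 arrays was made with limma 3.58.1 in R 4.3.3, with p-values adjusted by the Benjamini-Hochberg method at 0.05; the median SE was 0.357. The fit was tested on simulated data.

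Gene symbols came from the platform annotation, which can be old: 7006 probe sets have 1 symbol, 308 several and 1426 are unlisted. The probe set of highest mean signal stands for a gene. A probe set whose name holds _s_, _f_ or _i_ can match several transcripts. Named are the genes past the threshold, the 10 of smallest p where fewer than 5 passed in a direction, and 2 to 4 members of smallest p per list. Also named are unnamed probe sets past the threshold, interaction genes, up to 8 non-overlapping genes that missed, and a fixed set of insulin and fuel genes with Actb. Other list members named to show a list's range were chosen after their values were seen. The comparison, its members and the 29 gene lists were chosen with earlier results of these data known. Alternatives varied the pseudocount, filter, normalization, eBayes settings, covariates, array weights, replicate block and arrays. Promoters came from RefSeq (GRCr8).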

Additional observations from a re-analysis of the deposited data

Results flagged for a closer look

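Of 348 groups of 5 arrays screened for a stray array by Dixon's ratio (the gap to the nearest other array over the group's range, critical value 0.71), 24 exceeded it (6.9%, where chance gives 5%). Diabetic replicate 5 was the low array for Ankrd1 (0.934), Csrp3 (0.916), Bgn (0.881), Pgk1 (0.878), Sncg (0.846) and Fhl2 (0.817), and for the scores of the stretch and denervation list (0.926) and the slow fibre list (0.833). It was the high array for Impa2 (0.837), Myh1 (0.735) and the scores of the heme (0.789) and antioxidant lists (0.712). Ankrd1 measured 3383 there against 16285 to 18198 in the other 4 diabetic arrays, and Impa2 4419 against 2833 to 3047. Without this array 41 probe sets passed in place of 30. Treated diabetic replicate 5 was low for Rps9 (0.871), Gstm5 (0.849), Rpl11 (0.790) and Psmb8 (0.765) and high for Cpt1a (0.788). The beta-actin gene Actb (V01217_at) was not flagged, yet it measured 837 in that array and 4209 to 34372 in the other treated diabetic arrays. In diabetic muscle it measured 16064 to 38392 (limma, change -1.81 ± 0.64, adjusted p = 0.188). The remaining stray arrays were diabetic replicate 4, low for Txnip (0.865) and high for Decr1 by D00569_at (0.803), diabetic replicate 1, high for Actg2 (0.732), treated replicate 4, low for Cnp (0.804) and for the mast cell score (0.786), treated replicate 2, high for Hspa2 (0.806), and treated replicate 3, low for Insr (0.726).

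For 10 probe sets the treatment change in diabetic muscle differed from that in normal muscle (limma, interaction, adjusted p under the threshold). The differences were -5.47 for rc_AI176456_at, -4.26 for M33648_at, -3.80 for Ankrd1, -2.98 for Alox5ap, -2.93 for Lox, -2.39 for Cidea, -2.35 for Lyve1, -2.16 for Fcgr2b, -1.98 for rc_AA859832_at and -1.75 for Serping1. For rc_AI176456_at, 1 treated normal array measured 43792 and the other 4 between 1860 and 3992.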

How the results depend on the processing

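All 30 probe sets past the threshold kept their direction in every alternative that tested them. M33648_at alone kept its call in each alternative that tested it. The stricter filter, 15 or more arrays above the percentile, did not test M33648_at, Fhl2, Camk2n1, Emb (AJ009698_g_at), Spp1, Adprs, Fcgr2b or Myh3 (M12098_s_at). Their calls under that filter are therefore unknown. The count of calls was 50 (7 higher, 43 lower) with a pseudocount of 200, 19 (0 higher, 19 lower) with no filter on low values, 11 (0 higher, 11 lower) with the 10 diabetic arrays alone in the fit and 112 (27 higher, 85 lower) with array weights. Of the 11 calls with the 10 diabetic arrays alone, 7 were shared with the 30. Calls in the higher direction were 6 with trend and robust eBayes, 6 with the beta-actin ratio as covariate and 5 when the 3 arrays with a high Gapdh ratio were dropped. With the replicate block 39 passed, 6 of them higher, 28 shared with the 30, and the interaction gave 6, all lower. The correlations of same-numbered deviations ran from -0.07 to 0.23 and no sample matched its own number best. This check cannot exclude a batch shared by several numbers. The Gapdh ratio was higher in replicates 1 and 3 than in 2 and 4 in normal (2.90 and 2.91 against 0.03 and 0.05), diabetic (0.90 and 1.11 against 0.31 and 0.21) and treated diabetic muscle (3.94 and 1.06 against 0.13 and 0.50). Treated normal muscle did not share this (0.68 and 0.02 against 0.02 and 0.24). Whether a batch is behind these values was not tested.

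The interaction count of 10 fell to 1, lower, with no filter, quantile normalization, both ratios as covariates, and without the 3 high-Gapdh arrays, diabetic replicates 1 and 3, or treated replicates 1 and 3. It was 3 (1 higher, 2 lower) with the Gapdh ratio, 18 (2 higher, 16 lower) with the beta-actin ratio and 40 (7 higher, 33 lower) with array weights; 1 was higher with a pseudocount of 200, the stricter filter or trend and robust eBayes. Without diabetic replicates 1 and 3, 1 probe set passed (0 higher, 1 lower); without treated replicates 1 and 3, 20 passed, 0 higher. With 1 array left out the count ran from 10 to 54 (higher 0 to 7, lower 10 to 47) and the interaction from 1 to 22 (higher 0 to 3, lower 1 to 19).

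Of 545 tested members of any gene list, 2 genes were past the threshold higher and 13 lower (0.0838% and 0.558% of all tested genes). This became 0 and 8 with no filter, 1 and 8 with quantile normalization, 0 and 7 with the 10 arrays alone, 6 and 29 with array weights, 0 and 0 without diabetic replicates 1 and 3, 0 and 8 without treated replicates 1 and 3, and 1 higher with the Gapdh ratio or with all probe sets of a gene averaged. With 1 array left out it ran from 0 to 3 higher and from 5 to 15 lower.

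Values near 0 changed sign. Fabp3, 0.02 as reported, was -0.24 with quantile normalization or the Gapdh ratio, -0.03 with the beta-actin ratio, -0.28 with both, -0.12 with array weights, -0.27 without the high-Gapdh arrays, -0.07 without diabetic replicates 1 and 3 and -0.39 without treated replicates 1 and 3; with 1 array left out it ran from -0.27 to 0.31. Lpl, -0.07 as reported, was 0.11 and 0.05 without those pairs and ran from -0.26 to 0.13 with 1 array left out. Insr, -0.17 as reported, was 0.01 without treated replicates 1 and 3 and ran from -0.30 to 0.02 with 1 left out, and the Tpm3 probe set rc_AA859305_s_at was 0.10 without diabetic replicates 1 and 3. The causes of these moves were not tested. The 3 choices of arrays of high Gapdh ratio, diabetic 1 and 3 and treated 1 and 3 were made after seeing the data. Signals under the 40th percentile limit the fold of M33648_at, Fhl2 and Emb, dim in all 5 treated arrays. The same holds for Cd36, Aldoc and Gpam, which did not pass.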
